A study of Mus musculus with 12 samples.

Results

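The expression change that goes with loss of Phlpp2 was measured in chondrocytes that already lacked Phlpp1. Bulk RNA sequencing of 3 Phlpp1/2 KO samples was compared with that of 3 Phlpp1 KO samples, which make up 6 of the 12 samples in the series. The other 6, 3 of wild type (WT) and 3 of Phlpp2 KO, gave the same loss on a background with Phlpp1 intact. Both groups compared therefore carry a Phlpp1 knockout, and they differ by the Phlpp2 knockout and by the strain label given below. All mice were labelled female and 5 days old. Primary chondrocytes came from the epiphyses, the cartilage ends of growing bones. They were freed with collagenase, frozen, thawed and kept overnight in culture medium with serum before RNA was taken. The strain label was C57BL6 for WT, for Phlpp1 KO and for 2 Phlpp2 KO samples. It carried another final number, different in each, for Phlpp2 KO 3 and for all 3 Phlpp1/2 KO samples. In Phlpp1/2 KO against Phlpp1 KO, a difference in strain, if the labels are right, cannot be told apart from the loss of Phlpp2. Nothing in the labels tells single animals from pools, so p values measure the spread between samples, which may be technical. Every gene that passed a filter on low counts was compared, 16565 of the 49315 in the table.

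PHLPP1 and PHLPP2 are related phosphatases of the PH domain leucine-rich repeat family. They remove an activating phosphate from AKT, protein kinase C and other AGC kinases, and so limit signalling from growth factor receptors. In growth plate cartilage, AKT and ERK signalling bear on chondrocyte proliferation, matrix production and maturation to hypertrophy. The series is titled for the role of Phlpp1 in endochondral ossification, the growth of bone through a cartilage template.

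Library totals ran from 25555599 to 30415012 counts in Phlpp1 KO and from 30744961 to 33115345 in Phlpp1/2 KO, so a single count equals 0.0295 to 0.0392 CPM. CPM are counts scaled to a common library size. Across genes, which do not replicate one another, log2 CPM correlated at 0.990 to 0.994 within the groups (6 pairs) and at 0.989 to 0.993 between them (9 pairs). All 8 chondrocyte markers were detected in the 6 libraries, with a summed level of 40371 to 53230 CPM in Phlpp1 KO and 29868 to 44839 CPM in Phlpp1/2 KO. Markers of neutrophils, lymphocytes and erythroid cells summed to at most 1.76 CPM. In each group 1 library stood apart from its female label. Phlpp1/2 KO 1 had Xist, the RNA that silences an X chromosome in female cells, at 3.77 CPM and 108.5 CPM in sum of Y chromosome genes. Phlpp1 KO 1 had Xist at 13.9 CPM and no counts of Y genes, whereas Xist lay between 387 and 587 CPM in the other 4 libraries. Values without both libraries stand beside the gene lists whose count or median moved most. In bulk samples such as these, fewer cells of a type and less RNA per cell cannot be told apart.

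The targeted transcripts were read first. Phlpp1 stood at 9.25, 9.46 and 8.78 CPM in the Phlpp1 KO libraries and at 8.12, 7.71 and 8.83 CPM in the Phlpp1/2 KO libraries. The groups overlapped (log2 fold change -0.16, SE 0.10, adjusted p = 0.662), and all 6 libraries lay far below the 35.1 to 43.8 CPM of WT. Phlpp2 stood at 24.9, 22.8 and 24.9 CPM in Phlpp1 KO and at 11.1, 10.2 and 11.4 CPM in Phlpp1/2 KO. Every Phlpp1/2 KO library was below every Phlpp1 KO library, a 2.22-fold lower level (log2 fold change -1.15, SE 0.10, adjusted p = 0.000304). The counts cover the whole gene, and the labels do not give the part of Phlpp2 that was deleted, so the level that remained does not measure the function that remained.

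Loss of Phlpp2 on the Phlpp1-null background was followed by little change in other transcripts. At an adjusted p under 0.05 (edgeR's quasi-likelihood test, Benjamini-Hochberg adjustment), 2 of 16565 genes were called, or 0.0121% of the genes tested. Phlpp2 fell and Ciapin1, which encodes an electron carrier of cytosolic iron-sulphur cluster assembly, rose. The unadjusted p was under 0.05 for 1308 genes (7.9%), of which 570 were higher (3.44%) and 738 lower (4.46%) in Phlpp1/2 KO. The libraries of the groups did not overlap for 2190 genes (13.2%).

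These libraries could bound most changes. The 95% interval of the fold change lay wholly within a 2-fold rise and a 2-fold fall for 14236 genes, 85.9% of those tested. Among the 9254 genes with at least 10 CPM the share was 99.1%. The median half-width of the interval was 0.27 on the log2 scale, and 8 in 10 genes had an estimate between -0.26 and 0.26. DESeq2 called 20 genes in place of 2, of which 11 were higher, and edgeR without the filter on low counts called 14, of which 5 were higher. Both of those sets held Phlpp2 and Ciapin1.

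Ciapin1 stood at 72.6, 74.4 and 65.9 CPM in Phlpp1 KO and at 115.2, 122.4 and 105.3 CPM in Phlpp1/2 KO. The groups were far apart: the lowest Phlpp1/2 KO library was above the highest Phlpp1 KO library, and the mean was 1.61-fold higher (log2 fold change 0.69, SE 0.07, adjusted p = 0.0028). The call was lost when only the 6 libraries compared were fitted (0.69, adjusted p = 0.0578) and when both low-Xist libraries were left out (0.69, adjusted p = 0.108), with the size of the change kept. Ciapin1 was the 1 called gene apart from the target, and both lie on chromosome 8. Their promoters are printed here because the 2 genes carry the whole result. The sequences are from RefSeq (GRCm38.p6), from 250 bases before the start of transcription, in lower case, to the first 30 transcribed bases, in capitals. The Phlpp2 window is chr8:109868353-109868632 on the plus strand, 71.1% G and C. The Ciapin1 window is chr8:94838311-94838590 on the minus strand, 69.6% G and C.
Phlpp2: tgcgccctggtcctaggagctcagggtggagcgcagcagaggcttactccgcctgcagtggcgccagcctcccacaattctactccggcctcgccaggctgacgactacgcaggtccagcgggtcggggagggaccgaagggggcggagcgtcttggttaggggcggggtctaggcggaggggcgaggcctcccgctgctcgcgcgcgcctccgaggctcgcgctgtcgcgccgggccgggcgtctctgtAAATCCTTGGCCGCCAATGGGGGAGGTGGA
Ciapin1: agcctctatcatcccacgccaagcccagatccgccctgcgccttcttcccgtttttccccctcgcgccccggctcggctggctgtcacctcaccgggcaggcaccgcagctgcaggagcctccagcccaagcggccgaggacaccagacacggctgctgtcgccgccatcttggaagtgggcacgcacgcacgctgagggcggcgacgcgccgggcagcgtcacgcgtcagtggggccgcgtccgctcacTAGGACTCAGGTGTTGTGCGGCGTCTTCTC

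The Ciapin1 window is shared. Coq9, which encodes a protein of coenzyme Q synthesis, starts within it on the opposite strand, with its own window at chr8:94838163-94838442. From this common stretch of sequence 1 gene differed and its partner did not pass: Coq9 stood at 55.3, 52.9 and 49.2 CPM in Phlpp1 KO and at 56.6, 60.0 and 51.8 CPM in Phlpp1/2 KO. The Coq9 groups overlapped (0.10, SE 0.07, adjusted p = 0.684). A pair of features of the locus limits the Ciapin1 count. Its transcripts hold a stretch of 863 bases at 96.5% identity to Rpl7a, an abundant ribosomal protein gene, and its exons overlap those of Coq9 and of the Rpl7a pseudogene Gm7418 on the other strand. Neither the strand setting of the counting nor the treatment of reads with several matches is given in the sources used here, so reads of these genes may not be told apart. Rpl7a itself stood at 952, 1018 and 901 CPM in Phlpp1 KO and at 1057, 1084 and 1006 CPM in Phlpp1/2 KO (0.13, SE 0.07, adjusted p = 0.626).

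Ciapin1 was one of a group of genes that lie together, 14 to 15 Mb before Phlpp2, in the span from chr8:94819804 to chr8:95715119. Usb1, which encodes the exonuclease that trims U6 small nuclear RNA, was at 27.0, 27.8 and 26.3 CPM in Phlpp1 KO and at 36.0, 37.7 and 34.4 CPM in Phlpp1/2 KO. Its groups did not overlap, and it did not pass the test (0.42, SE 0.07, adjusted p = 0.0958). Ndrg4, of the NDRG family of alpha/beta hydrolase-like proteins, was at 16.99, 17.8 and 15.5 CPM in Phlpp1 KO and at 11.8, 11.8 and 12.1 CPM in Phlpp1/2 KO. It was lower in every library of the latter, again short of the threshold (-0.49, SE 0.08, adjusted p = 0.0958). DESeq2 called both, as did edgeR without the filter on low counts. The motor protein gene Kifc3, chosen after its values were seen, was at 55.3, 75.7 and 65.9 against 50.5, 48.1 and 52.3 CPM (-0.38, SE 0.10, adjusted p = 0.626).

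**Figure D1:**
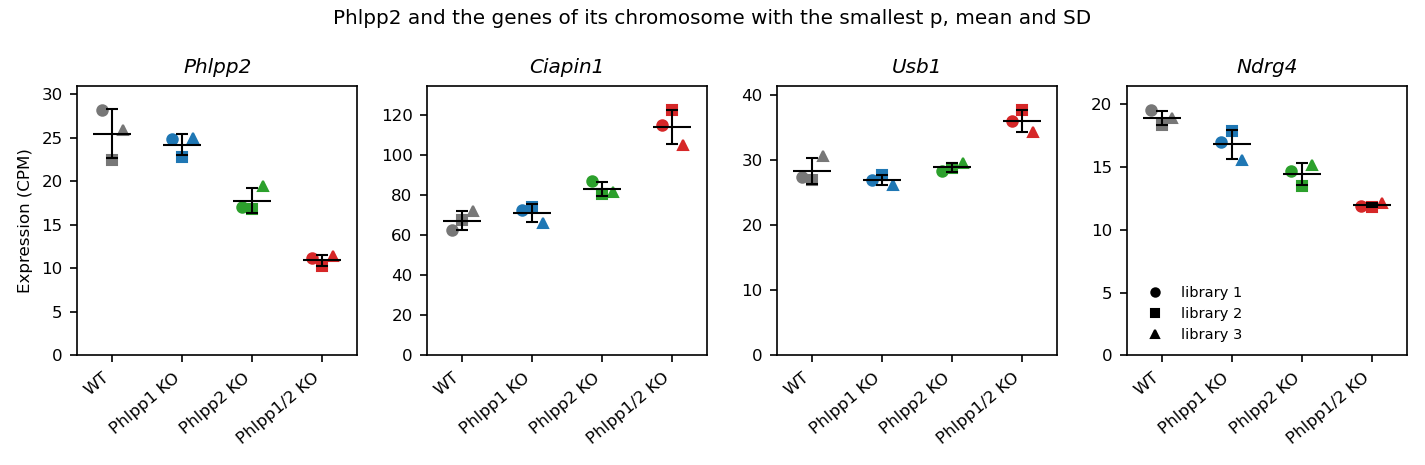
Expression in CPM (vertical axes, from 0) of Phlpp2, Ciapin1, Usb1 and Ndrg4 in the 12 libraries, by genotype. Symbols are libraries, black bars the mean and SD of 3; the Phlpp1/2 KO libraries do not overlap the Phlpp1 KO libraries in any of the 4 panels.

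The neighbourhood as a whole did not stand out at the level of unadjusted p values. Within 20 Mb on either side of Phlpp2, 345 genes were tested and 2 called, the target and Ciapin1, or 0.58% against 0.0121% of all genes. An unadjusted p under 0.05 was seen for 27 of these 345 (7.83%), close to the 7.9% of all genes. The genes nearest to the target were quiet. Among the 127 others within 5 Mb of Phlpp2, 0 were called by edgeR, and 6 (4.72%) had an unadjusted p under 0.05. The span from 12 to 17 Mb before Phlpp2, set after these values were seen, held 44 tested genes. Of these 3 (6.82%) had an unadjusted p under 0.001, Ciapin1, Usb1 and Ndrg4, against 0.181% of all genes. Around Phlpp1 on chromosome 1, where both groups carry the same knockout, 0 of 146 genes within 20 Mb were called, and 8 (5.48%) had an unadjusted p under 0.05.

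**Figure D2:**
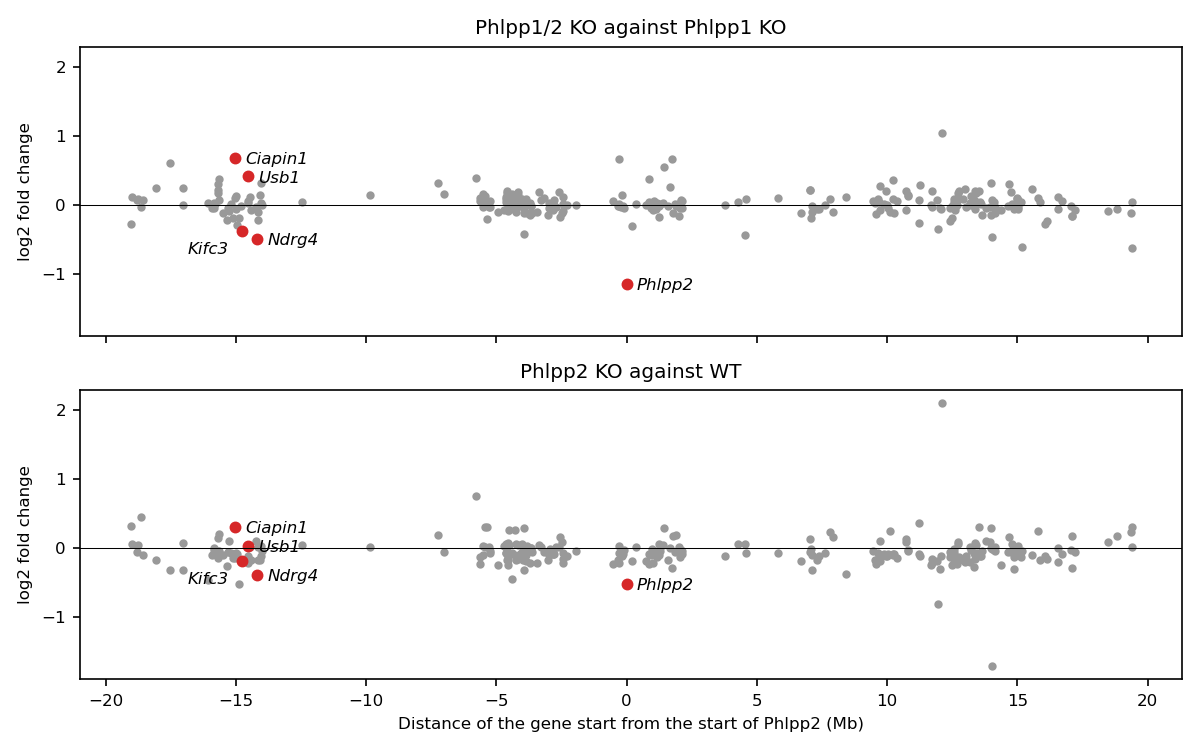
The log2 fold change (vertical axis) of genes with at least 1 CPM on average against the distance of their start from that of Phlpp2 in Mb, for Phlpp1/2 KO against Phlpp1 KO and for Phlpp2 KO against WT. The named genes are in red: Ciapin1, Usb1, Kifc3 and Ndrg4 sit together 14 to 15 Mb before Phlpp2.

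The same genes were read in the other Phlpp2-null group. Its libraries and those of WT enter neither side of the comparison, but the model takes its estimate of spread from all 12. In Phlpp2 KO, Phlpp2 was at 17.1, 16.8 and 19.4 CPM, below the 28.1, 22.5 and 25.8 CPM of WT (log2 fold change -0.52, SE 0.09, adjusted p = 0.0607). Ciapin1 was at 87.2, 80.8 and 81.7 CPM against 62.6, 67.7 and 72.0 CPM in WT (0.30, SE 0.07, adjusted p = 0.18). Ndrg4 was at 14.7, 13.5 and 15.1 against 19.5, 18.3 and 18.9 CPM (-0.39, SE 0.08, adjusted p = 0.123). For these 3 genes the Phlpp2 KO libraries did not overlap the WT libraries (as for 19.1% of all genes), in the direction seen on the Phlpp1-null background, and none passed the threshold. Usb1 was at 28.3, 28.8 and 29.6 CPM against 27.4, 27.0 and 30.6 CPM, which overlapped (0.03, SE 0.07, adjusted p = 0.881). The change on the Phlpp1-null background was the larger by 0.63 for Phlpp2, 0.38 for Ciapin1 and 0.39 for Usb1 on the log2 scale. That difference, the interaction of the model, did not pass the test for any of the 3 (adjusted p = 0.151 for each).

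Behind the 2 called genes, the 10 higher and 10 lower named genes with the smallest unadjusted p at 1 CPM or more were read as a description. None passed the threshold of edgeR with the filter on low counts, their adjusted p values ran from 0.0958 to 0.589, and the groups did not overlap for any of the 20, which the choice by p makes likely. DESeq2 called 11 of them, and edgeR without that filter 10. Among those higher in Phlpp1/2 KO, Lgals1, which encodes the sugar-binding protein galectin-1, was at 175, 204 and 183 CPM in Phlpp1 KO and at 283, 278 and 265 CPM in Phlpp1/2 KO (0.55, SE 0.10, adjusted p = 0.27). Mcub, which encodes an inhibitory subunit of the mitochondrial calcium uniporter, was at 7.71, 9.23 and 9.79 CPM and at 17.5, 16.0 and 19.5 CPM (0.99, SE 0.19, adjusted p = 0.295). Dynlt1, a dynein light chain gene, was at 5.65, 4.86 and 4.90 CPM and at 16.5, 9.91 and 13.0 CPM (1.35, SE 0.26, adjusted p = 0.27). Its transcripts are near-identical to those of Dynlt1a, Dynlt1c and Dynlt1f, so the count may hold reads of those copies.

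Of the 10 higher genes, 5 had a mean nearer to that of WT in Phlpp1/2 KO than in Phlpp1 KO, and 5, with Usb1 and Lgals1 among them, were farther from it. Of the 10 lower genes 6 were nearer. The genes were chosen by their difference between these 2 groups, and the same share over all genes was not computed. A return towards WT was therefore not tested. Mcub, Nfatc4, Dhrs7 and Snapc1, given next, were all of the nearer kind. Mcub was at 15.3 to 22.6 CPM in WT, a range that spans all 3 Phlpp1/2 KO libraries. Nfatc4, a calcium-dependent transcription factor gene, was at 2.76, 3.02 and 3.45 CPM in Phlpp1 KO, at 4.19, 4.68 and 4.52 CPM in Phlpp1/2 KO and at 5.01 to 5.48 CPM in WT. The chromosome 12 gene Dhrs7, for a short-chain reductase, was at 20.4, 19.0 and 21.0 CPM, at 28.2, 30.3 and 28.8 CPM and at 32.5 to 42.5 CPM in the same order. Snapc1, on the same chromosome and needed for small nuclear RNA transcription, was at 21.8, 17.9 and 23.9 CPM, at 28.0, 30.8 and 36.3 CPM and at 34.0 to 44.6 CPM. For both the Phlpp1/2 KO mean lay between that of Phlpp1 KO and that of WT. The remaining 4 of the 10 were Usb1, Glipr1, Dtd2 and Msr1. Dtd2 encodes a D-aminoacyl-tRNA deacylase and Msr1 a macrophage scavenger receptor. Msr1 was the lowest of the set, at 0.77, 0.85 and 1.02 CPM against 1.77, 1.35 and 1.56 CPM (0.83, SE 0.20, adjusted p = 0.589).

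Among the 10 lower genes, Nos1, which encodes the neuronal nitric oxide synthase, was at 13.2, 14.2 and 9.68 CPM in Phlpp1 KO and at 7.89, 8.29 and 6.14 CPM in Phlpp1/2 KO (-0.73, SE 0.15, adjusted p = 0.27). Bmp5, a secreted growth factor gene of skeletal development, was at 52.1, 49.8 and 53.3 CPM and at 33.6, 36.1 and 41.9 CPM (-0.48, SE 0.10, adjusted p = 0.39). Bmp5 took the opposite course on the other background, from 38.4, 36.4 and 39.6 CPM in WT to 50.4, 42.4 and 56.8 CPM in Phlpp2 KO. Its interaction was -0.86 on the log2 scale with an adjusted p of 0.0667. Bmt2, which encodes an S-adenosylmethionine sensor upstream of mTORC1, behaved likewise, with 0.34 on the log2 scale in Phlpp2 KO against WT and -0.44 in Phlpp1/2 KO against Phlpp1 KO (interaction -0.78, adjusted p = 0.136). Spns2, for an exporter of sphingosine 1-phosphate, was lower on both backgrounds, with log2 fold changes of -0.48 (adjusted p = 0.509) and -0.32 (adjusted p = 0.247).

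The remaining lower genes were Ndrg4, Kidins220, Plag1, Ror1, Spin4 and M1ap. Kidins220 encodes a membrane scaffold of neurotrophin receptors, Plag1 a zinc finger transcription factor and Ror1 a WNT5A receptor. Their changes ran from -0.38 for Kidins220 (SE 0.08, adjusted p = 0.295) to -0.61 for Spin4 (SE 0.14, adjusted p = 0.535). Of the 20 genes, 15 had the same sign in Phlpp2 KO against WT, beside 44.0% of all genes. They were 8 of the 10 higher and 7 of the 10 lower. An unadjusted p under 0.05, which 13.8% of all genes had in that comparison, and the same sign were seen for Msr1, Ndrg4 and Spns2, and an unadjusted p under 0.05 with the opposite sign for Bmp5 and Bmt2. The exons of Bmp5, Glipr1, Nos1, Kidins220 and Spns2 overlap another gene on the opposite strand, and those of Snapc1 overlap Gm49321 on the same strand. Their counts are uncertain to that extent.

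**Figure D3:**
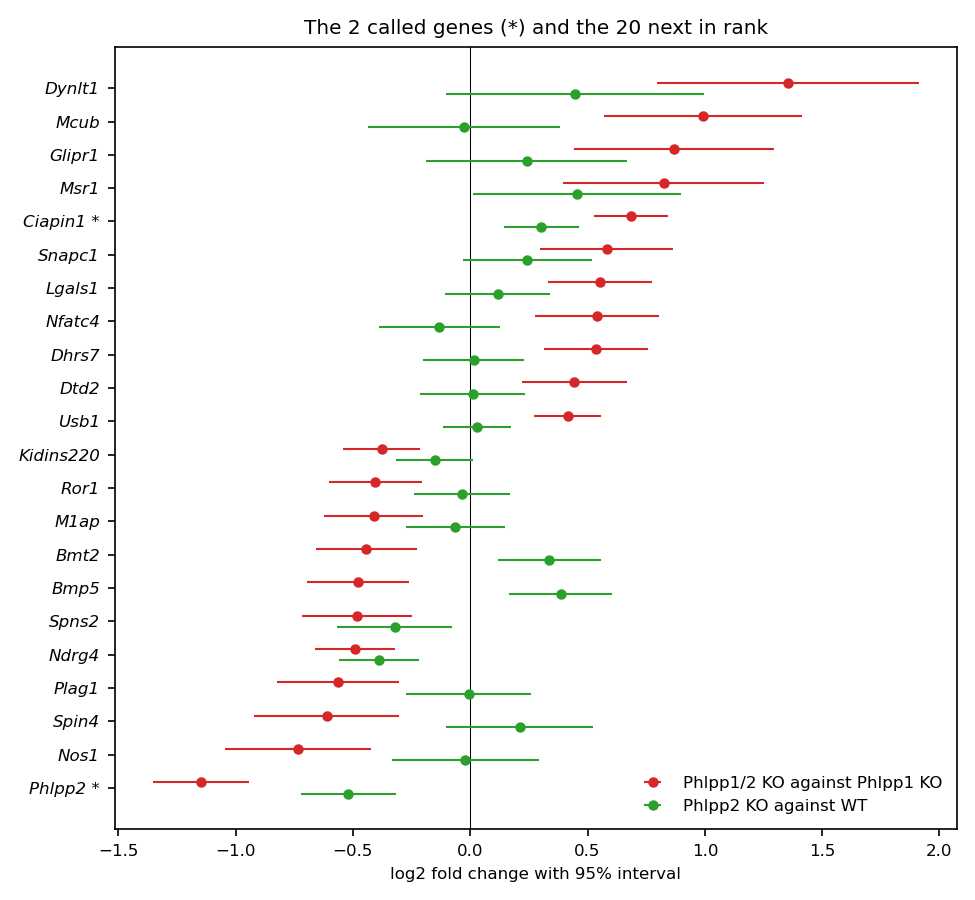
The log2 fold change with its 95% interval (horizontal axis) of the 2 called genes, marked with a star, and the 20 next in rank, for Phlpp1/2 KO against Phlpp1 KO (red) and Phlpp2 KO against WT (green). The red intervals exclude 0 because the genes were chosen by their p value there; Bmp5 and Bmt2 lie on opposite sides of 0 in the 2 comparisons.

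Genes that define the chondrocyte and its maturation did not pass the test. Col2a1, the main collagen of cartilage, was at 38174, 29248 and 30113 CPM in Phlpp1 KO and at 28739, 33004 and 20753 CPM in Phlpp1/2 KO, groups that overlapped (-0.24, SE 0.19, adjusted p = 0.734). Acan, the large aggregating proteoglycan, was at 4740, 3969 and 4268 CPM and at 3702, 3952 and 3287 CPM (-0.25, SE 0.13, adjusted p = 0.626). Its groups were only just apart. Sox9, a transcription factor that chondrocytes need to form, was at 349, 289 and 318 CPM and at 323, 311 and 295 CPM (-0.04, SE 0.19, adjusted p = 0.961). The 95% interval of Sox9 ran from -0.45 to 0.37, so a change of up to that size either way remained possible.

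The hypertrophic markers Col10a1 and Mmp13 differed in opposite directions, neither past the threshold. Col10a1, the collagen of hypertrophic chondrocytes, was at 1014, 893 and 706 CPM in Phlpp1 KO and at 621, 694 and 387 CPM in Phlpp1/2 KO (-0.62, SE 0.28, adjusted p = 0.626). Mmp13, a collagenase of late hypertrophy, was at 87.9, 126 and 144 CPM and at 210, 194 and 164 CPM (0.67, SE 0.22, adjusted p = 0.626). Neither pair of groups overlapped. On the opposite strand, the exons of Col10a1 overlap those of Nt5dc1, those of Runx2 overlap Runx2os1 and those of Pth1r overlap Myl3. The counts of Col10a1, Runx2 and Pth1r are uncertain to that extent. Runx2, Ihh, Pth1r and Fgf18 overlapped between the groups. Pth1r, the PTHrP receptor, showed how 1 library can set such a value: 2 Phlpp1/2 KO libraries were at 53.1 and 52.99 CPM and the third at 24.1 CPM, against 42.2, 27.8 and 34.0 CPM in Phlpp1 KO (0.32, SE 0.31, adjusted p = 0.783).

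Groups of genes were read from 31 lists of pathways and gene families with 817 tested genes. None of the 817 was called, and 76 (9.3%) had an unadjusted p under 0.05, against 7.9% of all genes. The lowest adjusted p was the 0.39 of Bmp5. List medians of the log2 fold change ran from -0.26 to 0.34, beside a median of 0.002 over all tested genes, of which 50.6% were higher in Phlpp1/2 KO. The lists describe these libraries, and no list was tested.

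Kinases and factors downstream of the phosphatases were near the median of all genes. Of 40 genes of the PI3K, AKT, mTOR and AGC kinase pathway, 13 were higher and 27 lower, with a median of -0.06. Of the 40, 5 were lower at an unadjusted p under 0.05, against 4.46% of all genes. With an offset for GC content and transcript length in each library, 19 were higher and 21 lower, with a median of -0.01. Inpp4b, a phosphoinositide phosphatase, was at 5.22, 7.65 and 7.48 CPM in Phlpp1 KO and at 4.22, 5.02 and 6.03 CPM in Phlpp1/2 KO. Phlpp1/2 KO 3 lay within the Phlpp1 KO range and its 2 partners below it. FOXO factors, which AKT phosphorylation keeps out of the nucleus, and their targets had 15 of 29 higher and a median of 0.01, and 20 of 29 and 0.09 without both low-Xist libraries. Foxo4 was at 83.7, 82.8 and 75.0 CPM and at 68.7, 74.2 and 62.0 CPM (-0.24, SE 0.08, adjusted p = 0.626).

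Growth factor pathways had list medians between -0.07 and 0.09. Genes of FGF signalling and ERK feedback were higher in 14 of 24, with a median of 0.02. Spred1, an inhibitor of ERK activation, was at 165, 152 and 161 CPM against 134, 133 and 158 CPM (-0.17, adjusted p = 0.626). Immediate early genes, which respond to ERK within minutes, were higher in 17 of 23, with a median of 0.09. Of the 23, 4 were higher at an unadjusted p under 0.05, against 3.44% of all genes, and 0 were lower. Their summed level was 1492 to 1549 CPM in Phlpp1 KO and 1575 to 1643 CPM in Phlpp1/2 KO, without overlap. Egr1 was at 92.1, 76.5 and 68.7 CPM in Phlpp1 KO and at 99.1, 113 and 81.6 CPM in Phlpp1/2 KO, and Junb at 61.5, 77.2 and 82.4 CPM and at 95.1, 90.9 and 91.4 CPM. The IGF and insulin list was lower in 15 of 21 (12 without Phlpp1/2 KO 3), with a median of -0.07. Of the 21, 4 were lower at an unadjusted p under 0.05, against 4.46% of all genes, and 0 were higher. Igfbp3 of this list, a binding protein of IGF, was at 23.8, 24.8 and 26.3 CPM and at 16.0, 21.6 and 18.6 CPM (-0.41, SE 0.11, adjusted p = 0.626). Members of the TGF-beta and BMP list were lower in 26 of 43, with a median of -0.02. Of the 43, 4 were lower at an unadjusted p under 0.05, and 0 were higher. Their summed level was 3639 to 3885 CPM in Phlpp1 KO and 3564 to 3595 CPM in Phlpp1/2 KO, without overlap. The receptor Bmpr1a was at 111, 105 and 128 CPM and at 80.6, 82.4 and 112 CPM. WNT genes were higher in 21 of 39 (17 without both low-Xist libraries) and hedgehog and PTHrP genes in 8 of 17, with medians of 0.01 and -0.003. The receptor Lgr6 of the WNT list was at 128, 163 and 146 CPM against 117, 99.9 and 108 CPM (-0.43, SE 0.11, adjusted p = 0.626).

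Cartilage matrix genes leaned lower, with a dependence on single libraries. Of 23 tested, 5 were higher and 18 lower in Phlpp1/2 KO, with a median of -0.26. Their summed level was 45455 to 60736 CPM in Phlpp1 KO and 33015 to 51062 CPM in Phlpp1/2 KO, ranges that overlapped. Hapln1, the link protein that ties aggrecan to hyaluronan, was at 1398, 1024 and 1333 CPM and at 935, 988 and 1025 CPM (-0.35, SE 0.14, adjusted p = 0.626). Col11a1, a minor fibril collagen of cartilage, was at 5996, 4360 and 4871 CPM and at 4027, 4536 and 3450 CPM. Without Phlpp1 KO 1, the highest of the 6 for the summed level, the median of the list was 0.01, and without both low-Xist libraries it was -0.02 with 8 of 23 higher. Leaving out Phlpp1/2 KO 3 gave -0.06. The 8 chondrocyte markers, some of which the matrix list also holds, were all lower, with a median of -0.26, and the median was -0.08 without both low-Xist libraries.

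Other matrix groups were less uniform. Genes of glycosaminoglycan synthesis were lower in 24 of 35, with a median of -0.06. Of the 35, 5 were lower at an unadjusted p under 0.05, against 4.46% of all genes. Has2, a hyaluronan synthase, was at 45.7, 56.3 and 54.2 CPM in Phlpp1 KO and at 37.1, 33.3 and 48.1 CPM in Phlpp1/2 KO (-0.40, SE 0.12, adjusted p = 0.626). Matrix proteases and their inhibitors were higher in 20 of 29, with a median of 0.12. Adamts5, an aggrecan-cleaving protease, was at 6.23, 6.74 and 9.52 CPM and at 9.95, 9.15 and 14.1 CPM (0.57, SE 0.22, adjusted p = 0.626). Fibrillar and other collagens had 13 of 26 higher, hypertrophy and mineralisation genes 10 of 19 and articular zone genes 9 of 17. Without both low-Xist libraries these counts were 7, 8 and 7, and 18 of the 26 collagens were higher without Phlpp1/2 KO 3. Prg4, the lubricin of the joint surface, was at 80.7, 95.1 and 113 CPM and at 160, 105 and 136 CPM. Integrins, laminins and syndecans were lower in 21 of 30. The integrin gene Itgav was at 324, 321 and 325 CPM and at 264, 259 and 297 CPM (-0.24, SE 0.07, adjusted p = 0.626).

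Immune genes leaned higher without a called member. Interferon response genes were higher in 26 of 29, with a median of 0.26 and a summed level of 155 to 181 CPM in Phlpp1 KO and 180 to 195 CPM in Phlpp1/2 KO. Ifi35 was at 4.68, 5.39 and 6.11 CPM and at 6.28, 6.88 and 7.80 CPM, and Irf9, part of the factor that interferon activates, at 11.04, 11.3 and 11.7 CPM and at 13.8, 12.4 and 14.5 CPM. Both had an adjusted p of 0.626. In Phlpp2 KO against WT the list leaned the other way, with 8 of 29 higher and a median of -0.13, where 46.1% of all genes were higher. Inflammatory and NF-kB genes were higher in 27 of 31, with a median of 0.34, and in 24 of 31 in Phlpp2 KO against WT. The chemokine gene Ccl5 was at 2.02, 3.15 and 4.39 CPM and at 5.09, 4.13 and 7.21 CPM. Antigen presentation genes were higher in 14 of 18, with a median of 0.10.

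Markers of macrophages moved with these lists. All 9 tested were higher in Phlpp1/2 KO, with a median of 0.44, and their list summed to 46.5 to 51.7 CPM in Phlpp1 KO and 50.5 to 68.6 CPM in Phlpp1/2 KO. Csf1r, the receptor that defines macrophages, was at 1.077, 1.51 and 1.76 CPM and at 2.32, 1.41 and 2.81 CPM. Without both low-Xist libraries 7 of the 9 were higher, and the medians of the interferon and inflammatory lists were 0.22 and 0.22. The part of macrophages in the immune lists was not tested. Markers of skeletal muscle were lower in 11 of 12, with a summed level of 14.6 to 65.4 CPM in Phlpp1 KO and 20.5 to 37.0 CPM in Phlpp1/2 KO. Myog, a muscle transcription factor, was at 1.61, 11.8 and 12.4 CPM and at 3.25, 2.172 and 5.38 CPM, so that 2 of the Phlpp1 KO libraries held the difference. The muscle median was -0.46, and without Phlpp1 KO 3 it was -0.05, with 5 of 12 higher. It was -0.67 without both low-Xist libraries (1 of 12 higher) and -0.79 without Phlpp1/2 KO 3 (0 of 12 higher). In Phlpp2 KO against WT all 12 were lower, with a median of -1.53. Endothelial markers were higher in 9 of 9, with a median of 0.25 and a summed level of 6.63 to 18.4 CPM against 11.02 to 15.6 CPM. Without both low-Xist libraries 6 of the 9 were higher, and their median ran from -0.08 without Phlpp1 KO 1 (4 of 9 higher) to 0.88 without Phlpp1 KO 3. The other marker lists with tested members held osteoblast, osteoclast, keratinocyte, adipocyte, tendon fibroblast and Schwann or neural genes. They had 0 called members, and the lowest adjusted p among them was 0.626.

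Genes of growth and energy metabolism differed by small amounts. The medians of all 3 lists were smaller with an offset for GC content and transcript length, least so for glycolysis and hypoxia. All 42 cytosolic ribosomal protein genes tested were higher in Phlpp1/2 KO, with a median of 0.13, and the groups did not overlap for 10 of them, against 7.2% of all genes that were higher without overlap. Rpl11 was at 665, 678 and 620 CPM and at 769, 757 and 698 CPM (0.18, SE 0.07, adjusted p = 0.626). Their sum was 32065 to 35730 CPM in Phlpp1 KO and 34839 to 38137 CPM in Phlpp1/2 KO. Nuclear genes of oxidative phosphorylation were higher in 27 of 30 and those of glycolysis and hypoxia in 29 of 37, with medians of 0.09 and 0.11. Ldha, lactate dehydrogenase, was at 1946, 1913 and 2009 CPM and at 2326, 2230 and 2154 CPM. On the other background these 3 lists had medians of -0.003, -0.005 and -0.07. Short transcripts in general were higher: of 5 classes of genes by transcript length, the shortest had a median of 0.07 and the longest -0.07. With an offset for GC content and transcript length in each library, ribosomal protein genes were higher in 32 of 42, with a median of 0.03. Oxidative phosphorylation genes were then higher in 17 of 30, with a median of 0.01, and glycolysis and hypoxia genes in 32 of 37, with a median of 0.09.

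Cell cycle genes leaned higher by a small amount, and stress genes had list medians close to 0, some of which rested on single libraries. Cell cycle genes were higher in 31 of 40, with a median of 0.09 and 0 members with an unadjusted p under 0.05. In Phlpp2 KO against WT they were also higher in 31 of 40, with a median of 0.26. There 11 members had an unadjusted p under 0.05, against 13.8% of all genes. Aurkb, a mitotic kinase, was at 39.5, 32.9 and 34.9 CPM and at 50.1, 44.0 and 43.4 CPM (0.36, SE 0.16, adjusted p = 0.626). The p53 targets were lower in 14 of 22, with a median of -0.02, and the unfolded protein response in 19 of 27 (14 without Phlpp1/2 KO 3). Of the 22 p53 targets, 5 were lower at an unadjusted p under 0.05, against 4.46% of all genes, and 0 were higher. Their sum was 3817 to 3917 CPM in Phlpp1 KO and 3539 to 3733 CPM in Phlpp1/2 KO. That of the unfolded protein response was 9816 to 9959 CPM and 9148 to 9580 CPM, so neither sum overlapped. Ccng1, a p53 target, was at 699, 703 and 719 CPM and at 495, 533 and 693 CPM (-0.30, SE 0.10, adjusted p = 0.626), with Phlpp1/2 KO 3 just below the Phlpp1 KO range. Targets of ATF4, a stress-induced transcription factor, had 16 of 29 higher and no stable lean. Leaving out Phlpp1 KO 1 gave 25, and Phlpp1 KO 2 or 3 gave 8 or 9. Leaving out Phlpp1/2 KO 2 gave 4 and Phlpp1/2 KO 3 gave 26, and leaving out both low-Xist libraries gave 27 (median 0.16). Heat shock genes divided 12 to 6 (8 to 10 without both low-Xist libraries), sterol and fatty acid synthesis 18 to 12, circadian clock genes 11 to 10, the BCL2 family 8 to 6 and chondrocyte transcription factors 15 to 14, higher to lower. Sox11, of the last list, was at 27.6, 20.9 and 24.6 CPM in Phlpp1 KO and at 31.0, 34.5 and 34.7 CPM in Phlpp1/2 KO (0.45, SE 0.11, adjusted p = 0.626). EdgeR without the filter on low counts called it. Its level was higher on the other background too, at 22.8, 16.5 and 18.6 CPM in WT and 30.8, 30.7 and 30.8 CPM in Phlpp2 KO (0.68, SE 0.11). Sox11 was among the 20 genes that edgeR called in that comparison. It was not called there with limma-voom or among protein-coding nuclear genes alone. Transcripts of the mitochondrial genome were higher in 4 of 13, with a median of -0.10, and in 8 of 13 with the offset for GC content described next.

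**Figure D4:**
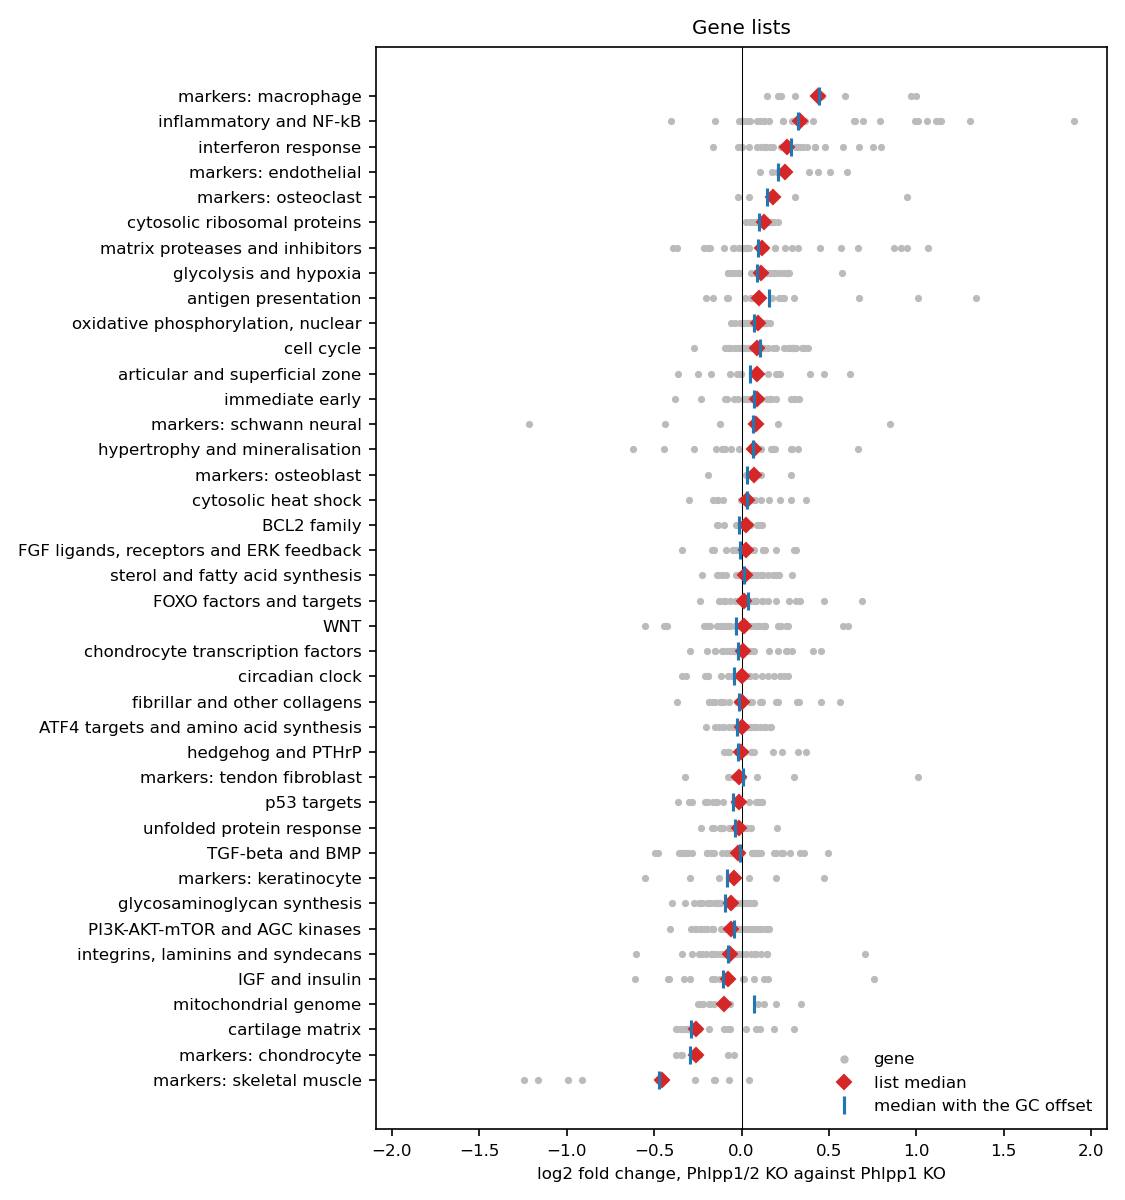
The log2 fold change of Phlpp1/2 KO against Phlpp1 KO (horizontal axis) for the genes of each list with more than 3 tested members (grey points), with the list median (red) and the median with the GC offset (blue). Medians of the pathway lists lie between -0.26 for cartilage matrix and 0.34 for the inflammatory genes.

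The base composition of transcripts went with the difference. Genes were divided into 5 classes by transcript GC content, at 2192 genes each. The class with the lowest GC content had a median log2 fold change of -0.13 and the class with the highest 0.04. This was not shared by the 3 Phlpp1/2 KO libraries. In the class with the lowest GC content, Phlpp1/2 KO 1 and 2 deviated by -0.14 and -0.13 from the mean of the 12 libraries, and Phlpp1/2 KO 3 by 0.12. The 3 Phlpp1 KO libraries deviated by 0.06, 0.05 and 0.13. Phlpp1/2 KO 3 thus stood with the Phlpp1 KO libraries in this respect, and for Ccng1 it was the nearest of its group to them. With an offset for GC content in each library, the comparison called 3 genes, with Phlpp2 and Ciapin1 among them.

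**Figure D5:**
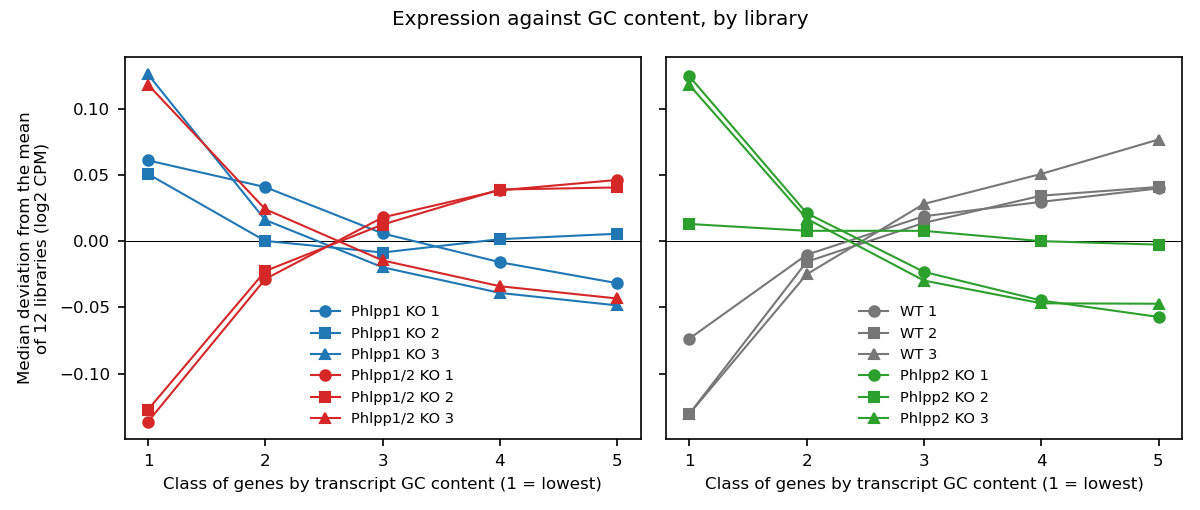
Median deviation from the mean of the 12 libraries in log2 CPM (vertical axis) for 5 equal classes of genes by transcript GC content (horizontal axis), with a line for each library. In the lowest class Phlpp1/2 KO 3 lies at 0.12, beside Phlpp1 KO 3 at 0.13, and Phlpp1/2 KO 1 and 2 lie at -0.14 and -0.13.

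Changes after loss of Phlpp2 were set beside each other on the 2 backgrounds, which share no libraries. In Phlpp2 KO against WT, 20 genes were called (0.121%), and the class with the lowest GC content had a median of 0.19, opposite to the -0.13 with Phlpp1 absent. Across the 16565 genes, which are not independent, the log2 fold changes had a Pearson correlation of 0.04 and a Spearman correlation of -0.13. Of the 1308 genes with an unadjusted p under 0.05 on the Phlpp1-null background, 433 (33.1%) had the same sign on the other, against 44.0% of all genes. With the GC offset the share was 534 of 1188 (44.9%), against 49.5% of all genes. In 331 genes the unadjusted p was under 0.05 on both backgrounds, which is 25.3% of the first set and 14.5% of the second, and 62 of these had the same sign. The GC offset left 192 such genes, 83 with the same sign.

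The interaction tested whether the change differed between backgrounds. It called 8 genes (0.0483%), 7 of them pseudogenes and the eighth mt-Nd3, a mitochondrial gene for a subunit of respiratory complex I. Of these, 0 were called in Phlpp1/2 KO against Phlpp1 KO. In that comparison mt-Nd3 was at 1.18, 1.94 and 1.57 CPM and at 2.00, 2.203 and 1.74 CPM (0.34, SE 0.19, adjusted p = 0.633), while WT was at 18.6 to 21.3 CPM and Phlpp2 KO at 1.42 to 1.98 CPM. The count depended on the libraries and on the method. Without Phlpp1/2 KO 3 it was 1196, of which 1162 were lower. Once the GC offset was added to that fit it was 8, of which 3 were among the 8 called with all libraries. The others were Cr1l, Rab5a, Rnps1, Rps2 and Snx7. It was 71 without Phlpp2 KO 2 and 5 to 10 without any other single library. With all 12 libraries it was 183 without the filter on low counts, 308 with the replicate number as a block and 640 with DESeq2.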

How the data were processed

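Total RNA of 12 samples, 3 per genotype, was made into libraries with the NEBNext Ultra II kit, per the labels' protocols. All results start from the table of raw, unscaled counts that the authors deposited. The submitters' processing notes name bcl2fastq 2.17, STAR 2.5.2b and featureCounts of Subread 1.5.2 as tools, with the mm10 build. The sources used here do not state the strand setting or annotation release.

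The analysis used edgeR 4.0.16 under R 4.3.3. Its filter on low counts left 16565 genes and removed 32750; 174 without a symbol held 0.00419% of the counts. TMM factors scaled the libraries, and 1 model with a term for genotype took all 12 (8 residual degrees of freedom), so that groups share an estimate of spread. Contrasts were tested with the quasi-likelihood test, adjusted by Benjamini-Hochberg over all tested genes, and called at an adjusted p under 0.05. CPM used scaled library sizes. Fold changes are Phlpp1/2 KO over Phlpp1 KO on the log2 scale unless another contrast is named. The code was tested on simulated data.

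Positions came from GENCODE vM21 of the same build, and near-identical copies from BLAST+ 2.17.0 (a minimum of 95% identity along 150 bases). Named genes were the 2 targets and 9 cartilage genes, every called gene and the 10 higher and 10 lower genes next in rank at a mean of 1 CPM or more. Each list added 2 to 4 members, by smallest adjusted p, and some of these are given. Predicted genes and pseudogenes were skipped, apart from those of the interaction. The comparison, the lists and the rule were chosen with earlier results of these data known. Alternatives were DESeq2 1.42.0 and its size factors, limma-voom (limma 3.58.1), no filter, only the 6 libraries compared, protein-coding nuclear genes only, the replicate number as a block and fits without each library or both low-Xist libraries. Offsets for GC content and length were added after the data were seen. The smallest exact two-sided permutation p for 3 against 3 is 0.1, so single values were not tested that way.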

Additional observations from a re-analysis of the deposited data

Results flagged for a closer look

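For 8 genes the change after loss of Phlpp2 differed between the backgrounds by the interaction term of edgeR's model (adjusted p under 0.05). In each of them the WT libraries stood apart from all 9 knockout libraries, and Phlpp1/2 KO and Phlpp1 KO did not differ beyond the threshold. The interaction of Rps2-ps10, a pseudogene of a ribosomal protein gene, was 4.91 on the log2 scale, with 504 to 609 CPM in WT and 14.8 to 21.7 CPM in the knockouts. It was 3.13 for the pseudogene Gm9825, at 15.8 to 16.7 CPM in WT and 1.79 to 2.69 CPM elsewhere. For mt-Nd3 it was 3.93, with 18.6 to 21.3 CPM in WT and 1.18 to 2.203 CPM elsewhere. Gm6139 (2.57) and Rps2-ps13 (1.23) were likewise highest in WT. The pseudogenes Gm28438 (-2.78), Gm10222 (-1.73) and Gm28437 (-0.93) were lowest in WT. Gm28438 had 2.18 to 3.42 CPM in WT and 13.1 to 26.1 CPM in the knockouts. Among protein-coding nuclear genes alone edgeR's interaction called 0, with 2176 at an unadjusted p under 0.05, and DESeq2 over all genes called 640.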

How the results depend on the processing

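The count of genes called in Phlpp1/2 KO against Phlpp1 KO was 2 with DESeq2 size factors, limma-voom, the replicate block and protein-coding nuclear genes, and 3 with the GC offset. It was 14 without the low-count filter, 20 with DESeq2 and 1 with only the 6 libraries compared. Leaving out 1 library gave 2 to 4; Gm15446 and Rnf216 were added without Phlpp1 KO 2. Without both low-Xist libraries it was 2, Phlpp2 and Gm7993. Within 20 Mb of Phlpp2 it was 4 without the filter, 4 with DESeq2, 1 with 6 libraries, 1 without both low-Xist libraries and 2 without each library in turn. Phlpp2 was called under all 18 alternatives and Ciapin1 under all but those 2. The cause of these shifts was not tested.

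In Phlpp2 KO against WT, 20 genes were called, 110 without the filter, 317 with DESeq2, 13 with limma-voom, 84 with the replicate block, 35 with that block and the GC offset, 2 among protein-coding nuclear genes and 9 to 22 without 1 library. The interaction called 8, then 183 without the filter, 640 with DESeq2, 308 with the replicate block, 24 with that block and the GC offset, 0 among protein-coding nuclear genes, 4 without both low-Xist libraries and 5 to 1196 without 1 library. The labels number replicates alike without saying that numbers pair samples. Deviations from group means of same-numbered Phlpp1 KO and Phlpp1/2 KO libraries correlated at 0.12, 0.02 and 0.30, and those of WT and Phlpp2 KO at 0.08, 0.16 and 0.14. Libraries of different number correlated at -0.28 to 0.19 and at -0.15 to 0.007. The best match of Phlpp1 KO 1 was Phlpp1/2 KO 2 (0.19), and every other Phlpp1 KO and WT library matched its own number best. The main fit did not use the numbers as pairs, and whether they pair samples was not tested.

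Of 576 values of 32 named genes, 22 passed the threshold only under an alternative, 2 lost it and 4 changed sign. Those 4 came from leaving out 1 library: Sox9 ran from -0.11 to 0.028 (above 0 without Phlpp1 KO 1), Ihh from -0.19 (without Phlpp1/2 KO 2) to 0.51, and Fgf18 from -0.34 to 0.17 (above 0 without Phlpp1 KO 3 and at 0.016 without Phlpp1/2 KO 2). Of 754 recomputed list medians 92 changed sign. Genes under 10 CPM have wider intervals, and for them a change of 2-fold may not be detectable with 3 libraries a group.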

Other observations

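A few transcripts took distinct levels in libraries of the same genotype, and another, Gm6787, differed between the groups compared. They were chosen after their values were seen, and none was called by edgeR with the filter on low counts and no offset. DESeq2 called Gm7993, Gm15446, Gm6472 and Gm6787, and edgeR called Gm6787 without the filter and with the GC offset. The pseudogene Gm7993 on chromosome 5 was at 5.67, 111 and 56.7 CPM in the 3 Phlpp1/2 KO libraries, at 92.8 to 110.4 CPM in Phlpp2 KO and at 4.31 to 6.65 CPM in every Phlpp1 KO and WT library. On the same chromosome, Rnf216, which encodes a ubiquitin ligase, was at 30.8, 58.7 and 29.7 CPM in Phlpp1 KO and at 54.6 to 66.7 CPM in all 9 other libraries. Gm15446, also on chromosome 5, was at 5.12, 0.49 and 4.15 CPM in Phlpp1 KO, at 3.63 to 5.33 CPM in WT and at 0.25 to 0.61 CPM in the 6 libraries that lack Phlpp2. Thus Phlpp1 KO 2 stood apart from its group for both Rnf216 and Gm15446. On chromosome X, Gm6472 was at 47.7, 7.62 and 45.7 CPM in Phlpp1/2 KO and at 5.21 to 8.43 CPM in all 9 other libraries. On the same chromosome Gm6787 was at 1.72, 1.41 and 1.29 CPM in Phlpp1 KO and at 0.13, 0.31 and 0.32 CPM in Phlpp1/2 KO (-2.51 on the log2 scale, adjusted p = 0.0506), with 0.36 to 0.43 CPM in Phlpp2 KO and 0.50 to 1.299 CPM in WT.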
